A study of Mus musculus with 24 samples.

Results

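Aminoacyl-tRNA synthetases are the enzymes that join each amino acid to the transfer RNAs (tRNAs) that carry it to the ribosome. Their genes were chosen here by name, as every gene of the table whose name is the letter code of an amino acid followed by ars, with or without a final 1 or 2, or is Farsa, Farsb or Fars2. The rule found 36 of the 55487 genes in the table. Of these, 17 with names ending in 2 encode mitochondrial enzymes and the other 19 encode cytosolic ones, of which Gars and Kars are known to serve both compartments. All 36 passed the filter on low counts that left 15828 genes for testing.

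Protein synthesis runs in the cytosol and, on a separate set of ribosomes, inside mitochondria, and for most amino acids a separate nuclear gene encodes the enzyme of each compartment. Several cytosolic synthetases are held together in the multisynthetase complex by the scaffold proteins Aimp1, Aimp2 and Eef1e1. Many cytosolic synthetase genes are known targets of ATF4, a transcription factor made in larger amounts when amino acids are short and when MTOR complex 1 is active, which binds an element of the C/EBP-ATF type in their promoters.

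Poly(A) RNA of mouse embryonic fibroblasts (MEFs) was sequenced in 24 libraries that form 6 groups of 4. Wild-type (WT) MEFs were treated with the vehicle DMSO, with MK-8722, an activator of AMP-activated protein kinase (AMPK), or with torin1, which inhibits the kinase MTOR. MEFs labelled AMPK KO received the same 3 treatments. According to the study's methods these cells lack both catalytic subunits of AMPK, encoded by Prkaa1 and Prkaa2. The study asked which transcripts each drug changes and whether the change needs AMPK. Each group holds 1 library of each of 4 passages, numbered 12 to 15 for WT and 16 to 19 for AMPK KO, so passage and genotype cannot be told apart. Whether a genotype is 1 line or 1 clone is not given in the sources used here. The libraries of a group differ in passage, but nothing in the labels says that they came from separately derived cells. The p-values therefore measure the spread between these libraries.

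The total count per library lay between 26900240 and 34192685. Levels are given in CPM, which are counts scaled by the library total multiplied by a normalization factor of that library, the TMM factor. These factors lay between 0.926 and 1.099. A gene was called where the edgeR adjusted p was under 0.05 and the fold change at least 1.2. Transcripts of Prkaa1 and Prkaa2 were present in the AMPK KO libraries, with log2 fold changes against WT in DMSO of -0.19 and -0.56, and since transcripts can persist from a disrupted gene, they do not check the labels. The 8 fibroblast markers examined summed to 11100 to 17100 CPM in the WT libraries and to 4770 to 6830 CPM in the AMPK KO libraries, and 7 of the 8 were called lower in AMPK KO, with Col1a2, a collagen chain, at a log2 fold change of -6.46. Epithelial, endothelial, haematopoietic and muscle markers summed to at most 8.49 CPM each in any library and neural ones to at most 56 CPM. Krt8, Ptprc, Adgre1, Sox10, Myod1 and Myog did not pass the filter, and Sox2, listed as neural, had 240 to 491 counts in the AMPK KO libraries and 0 to 2 in WT. The part of these differences in the comparison of genotypes was not tested. In bulk RNA, fewer cells of a type and less RNA per cell cannot be told apart.

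The promoters are shown first because the C/EBP-ATF element is the feature of these genes that the amino acid response is known to act through. RefSeq windows of 300 bases around the annotated start (GRCm38.p6, 250 bases before to 50 after) matched 26 of the 36 genes by symbol. The letters TGATGNAA, on either strand, stood in the windows of 5 of the 12 cytosolic genes that had one (41.7%) and in 0 of the 15 windows of 14 mitochondrial genes. Of all 32851 windows in the RefSeq table, 1304 (3.97%) held these letters. A match is a description of the letters and not a bound site. The 5 windows with a match are printed with the matched letters in capitals, which read as the reverse complement where the match is on the other strand. The window of Qars follows as 1 of those without a match, and Qars was the only cytosolic gene called higher with torin1.
Aars, chr8:111033592-111033891, plus strand: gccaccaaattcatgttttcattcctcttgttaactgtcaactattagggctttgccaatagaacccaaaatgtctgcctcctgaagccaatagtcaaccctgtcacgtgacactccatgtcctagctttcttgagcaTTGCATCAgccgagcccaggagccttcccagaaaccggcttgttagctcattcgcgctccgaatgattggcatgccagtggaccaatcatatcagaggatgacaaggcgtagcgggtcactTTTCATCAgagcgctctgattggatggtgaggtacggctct
Gars, chr6:55037751-55038050, plus strand: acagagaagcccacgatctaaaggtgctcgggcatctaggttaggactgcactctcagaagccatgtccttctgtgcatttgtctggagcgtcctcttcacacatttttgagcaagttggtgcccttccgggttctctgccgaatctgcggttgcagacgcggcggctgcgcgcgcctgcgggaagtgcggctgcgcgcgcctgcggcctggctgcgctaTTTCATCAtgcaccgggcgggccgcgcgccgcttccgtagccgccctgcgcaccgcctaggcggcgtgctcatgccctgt
Iars, chr13:49681880-49682179, plus strand: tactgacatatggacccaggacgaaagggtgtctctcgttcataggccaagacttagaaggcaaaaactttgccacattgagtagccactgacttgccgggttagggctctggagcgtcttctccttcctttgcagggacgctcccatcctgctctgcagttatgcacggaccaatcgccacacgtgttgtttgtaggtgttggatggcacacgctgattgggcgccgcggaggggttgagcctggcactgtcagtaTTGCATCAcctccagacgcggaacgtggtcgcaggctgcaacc
Tars, chr15:11399609-11399908, minus strand: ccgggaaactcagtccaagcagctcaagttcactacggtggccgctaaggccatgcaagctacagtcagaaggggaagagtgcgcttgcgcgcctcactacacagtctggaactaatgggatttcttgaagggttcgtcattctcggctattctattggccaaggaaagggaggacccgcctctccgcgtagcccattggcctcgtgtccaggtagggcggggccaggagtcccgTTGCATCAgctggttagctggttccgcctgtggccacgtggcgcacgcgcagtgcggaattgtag
Yars, chr4:129189653-129189952, plus strand: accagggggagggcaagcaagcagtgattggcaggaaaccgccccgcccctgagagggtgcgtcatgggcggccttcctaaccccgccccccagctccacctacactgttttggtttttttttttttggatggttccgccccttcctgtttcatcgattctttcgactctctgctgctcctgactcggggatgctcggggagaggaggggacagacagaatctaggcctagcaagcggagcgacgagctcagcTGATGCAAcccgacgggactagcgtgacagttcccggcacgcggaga
Qars, chr9:108507755-108508054, plus strand: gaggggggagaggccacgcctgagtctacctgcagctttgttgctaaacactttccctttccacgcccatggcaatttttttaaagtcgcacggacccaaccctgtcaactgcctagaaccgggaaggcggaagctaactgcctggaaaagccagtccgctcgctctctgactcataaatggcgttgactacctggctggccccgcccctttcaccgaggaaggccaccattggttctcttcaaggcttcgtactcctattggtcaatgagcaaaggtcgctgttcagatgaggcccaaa
All 5 genes with a match fell with torin1 in both genotypes. Of the 7 cytosolic genes with a window and no match, Farsa, Farsb, Mars1 and Sars fell, Dars and Kars were not called and Qars rose. Of the cytosolic genes without a window, Cars, Hars, Lars, Nars and Wars fell in both genotypes, and Rars and Vars were not called. The part of these letters in the response to torin1 was not tested.

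Levels per length were compared with TPM, a level scaled for transcript length and depth, summed over the transcripts of a gene as deposited. Averaged over all 24 libraries, every cytosolic gene stood above every mitochondrial gene, with 56.6 TPM (Wars, tryptophan) to 520 TPM (Nars, asparagine) among the former and 2.66 TPM (Mars2, methionine) to 53.7 TPM (Tars2, threonine) among the latter. With torin1 alone the 2 classes were not separate. There Wars had means of 32.9 TPM in WT and 37.7 TPM in AMPK KO, below Tars2 at 67 and 59.9 TPM. Nars had 752 ± 169 TPM in WT and 589 ± 65.2 TPM in AMPK KO with DMSO (SD, n = 4 each), and 252 ± 30 and 233 ± 9.42 TPM with torin1. Mars2, the lowest, had 2.63 ± 0.291 and 2.75 ± 0.163 TPM with DMSO and 2.41 ± 0.111 and 2.53 ± 0.217 TPM with torin1. Some neighbours in this order were close, such as Vars (valine) at 391 and Sars (serine) at 383 TPM. Added up in CPM, the 19 cytosolic genes took 6740 ± 1010 CPM in WT with DMSO and 6430 ± 186 CPM in AMPK KO with DMSO (SD, n = 4 each), and the 17 mitochondrial genes took 541 ± 15.2 CPM in WT.

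Torin1 called more synthetase genes than any other comparison here. In WT, 14 of the 19 cytosolic synthetase genes fell, 1 rose and 4 were not called, whereas of the 17 mitochondrial genes 3 fell, 6 rose and 8 were not called. In AMPK KO the same 14 cytosolic genes fell and the same 1 rose, and of the mitochondrial genes 3 fell and 3 rose. Over all genes tested, 21.1% were called lower and 26.6% higher in WT, and 17.6% lower and 25.9% higher in AMPK KO. The median log2 fold change was -1.02 over the cytosolic and -0.008 over the mitochondrial genes in WT, beside 0.036 over all genes, and -0.93, -0.001 and 0.055 in AMPK KO. Summed over the cytosolic genes, torin1 left 3650 ± 123 CPM in the WT group and 3760 ± 45.2 CPM in the AMPK KO group (SD, n = 4 each). The highest torin1 library of either genotype, at 3810 CPM, was below the lowest DMSO library, at 5932 CPM.

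**Figure D1:**
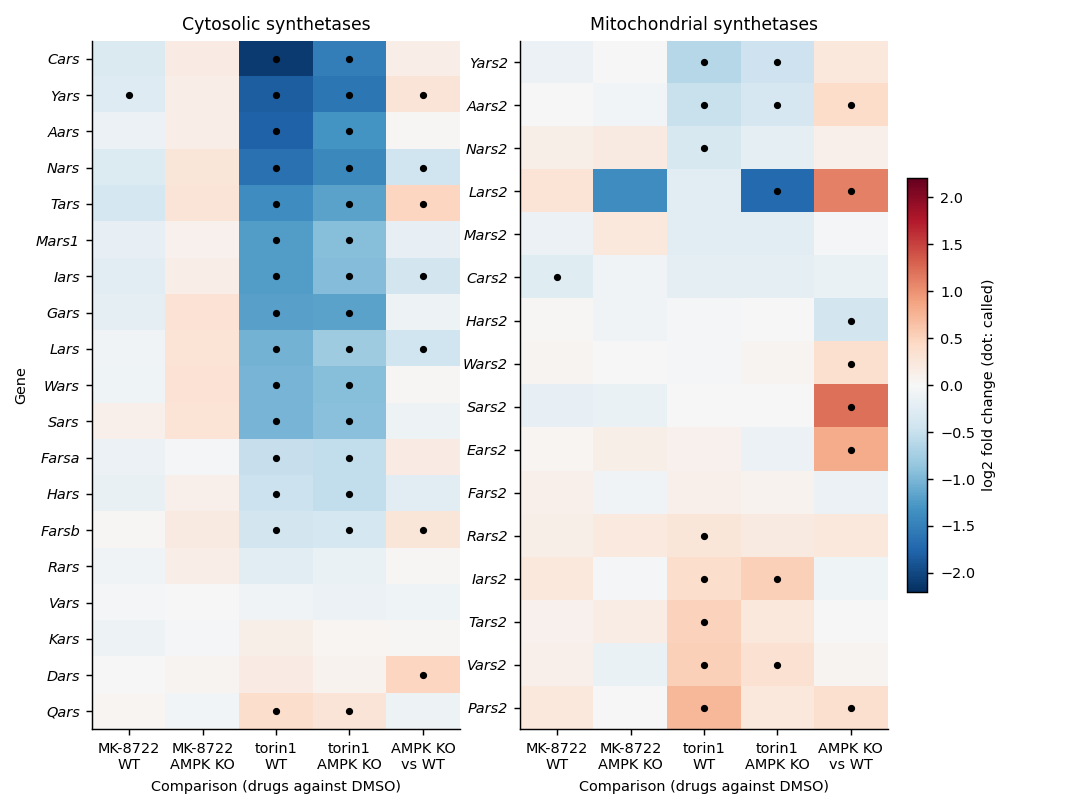
Log2 fold changes of the 19 cytosolic (left) and 16 mitochondrial (right) synthetase genes, 1 row per gene ordered by the torin1 change in WT, in 5 comparisons (columns), with blue for lower, red for higher and a dot where the gene was called. The block of blue with dots in both torin1 columns holds the 14 cytosolic genes that fell, and the rows from Rars to Dars hold none in those columns.

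Cars, the cysteinyl-tRNA synthetase (ENSMUSG00000010755, chromosome 7, 143557230 to 143600090, minus strand), fell most in WT. It stood at 169, 201, 176 and 240 CPM in the 4 WT libraries with DMSO and at 41.4, 41.3, 45.4 and 54.9 CPM with torin1, a log2 fold change of -2.10 (adjusted p = 1.1e-11 in edgeR, SE 0.143). In AMPK KO it went from 213, 213, 215 and 231 to 75.7, 74.6, 75 and 79 CPM, -1.52 (adjusted p = 2.4e-09 in edgeR, SE 0.139). The groups did not overlap in either genotype, and with torin1 every AMPK KO library lay above every WT library.

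Yars, for tyrosine (ENSMUSG00000028811, chromosome 4, 129189760 to 129219607, plus strand), was at 197, 230, 203 and 271 CPM with DMSO and 60.8, 65.6, 63.3 and 66.8 CPM with torin1 in WT, a log2 fold change of -1.81 (adjusted p = 7.7e-13 in edgeR, SE 0.104). In AMPK KO the values were 267, 265, 279 and 281 CPM and 93.3, 87.5, 90.9 and 90.8 CPM, -1.59 (adjusted p = 9.4e-12 in edgeR, SE 0.102). The libraries with torin1 were close to each other and far below those with DMSO in both genotypes. Aars, for alanine (ENSMUSG00000031960, chromosome 8, 111033144 to 111057664, plus strand), went in WT from 735, 858, 773 and 978 to 240, 238, 248 and 246 CPM, -1.78 (adjusted p = 4.4e-13 in edgeR, SE 0.099). In AMPK KO Aars went from 835, 814, 878 and 894 to 354, 324, 353 and 349 CPM, -1.31 (adjusted p = 9.1e-11 in edgeR, SE 0.098). The AMPK KO libraries with torin1 kept a higher level of Aars than the WT ones, and the difference between the responses, the interaction, was 0.47 (adjusted p = 0.028 in edgeR, SE 0.136). Of its 9282 annotated exonic bases, Aars shares 1326 with Exosc6 on the same strand, where reads cannot be assigned with certainty.

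Nars, the most abundant per length (ENSMUSG00000024587), fell from 644, 795, 700 and 1080 to 247, 233, 263 and 294 CPM in WT, -1.64 (adjusted p = 3.4e-09 in edgeR, SE 0.156), and from 542, 586, 669 and 578 to between 214 and 231 CPM in AMPK KO, -1.43 (adjusted p = 4e-08 in edgeR, SE 0.155). The group ranges were apart although the WT libraries with DMSO differed widely. Falls of more than 1 on the log2 scale in WT were also seen for Tars (-1.37 in WT and -1.17 in AMPK KO), Mars1 (-1.23 and -0.93), Iars (-1.22 and -0.95), Gars (-1.19 and -1.18), Lars (-1.04 and -0.79), Wars (-1.02 and -0.93) and Sars (-1.02 and -0.93), which serve threonine, methionine, isoleucine, glycine, leucine, tryptophan and serine. The smaller falls were those of both chains of the phenylalanine enzyme, Farsa (-0.51 and -0.55) and Farsb (-0.41 and -0.38), and of Hars for histidine (-0.47 and -0.55). All these falls were called in both genotypes.

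The cytosolic genes not called lower were Qars, Kars, Dars, Vars and Rars, for glutamine, lysine, aspartate, valine and arginine. Qars (ENSMUSG00000032604, chromosome 9, 108507706 to 108515941, plus strand) rose from 141, 138, 145 and 148 to 190, 188, 187 and 186 CPM in WT, 0.39 (adjusted p = 9.1e-09 in edgeR, SE 0.04), and from 134, 141, 125 and 127 to 153, 167, 156 and 161 CPM in AMPK KO, 0.28 (adjusted p = 2.8e-06 in edgeR, SE 0.04). Its groups did not overlap in either genotype, but in AMPK KO the fold of 1.2 was just met, and the call was lost without any 1 of 4 libraries (DMSO replicates 3 and 4, torin1 replicates 2 and 4), at log2 fold changes of 0.20 to 0.22, as it was with DESeq2 (0.25). In WT Kars had 374 ± 10.6 CPM with DMSO and 408 ± 13.4 CPM with torin1 (SD, n = 4 each), on the log2 scale 0.12 (adjusted p = 0.012 in edgeR, SE 0.041), a difference below the fold of 1.2. Log2 fold changes were 0.19 in WT and 0.07 in AMPK KO for Dars and -0.08 and -0.13 for Vars, none of them called. Rars was at 194, 195, 208 and 228 CPM with DMSO and 166, 157, 180 and 189 CPM with torin1 in WT, groups that did not overlap, and its log2 fold change, -0.25 (adjusted p = 0.00086 in edgeR, SE 0.06), was just below the fold of 1.2. In AMPK KO that of Rars was -0.14 (adjusted p = 0.05 in edgeR, SE 0.06).

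**Figure D2:**
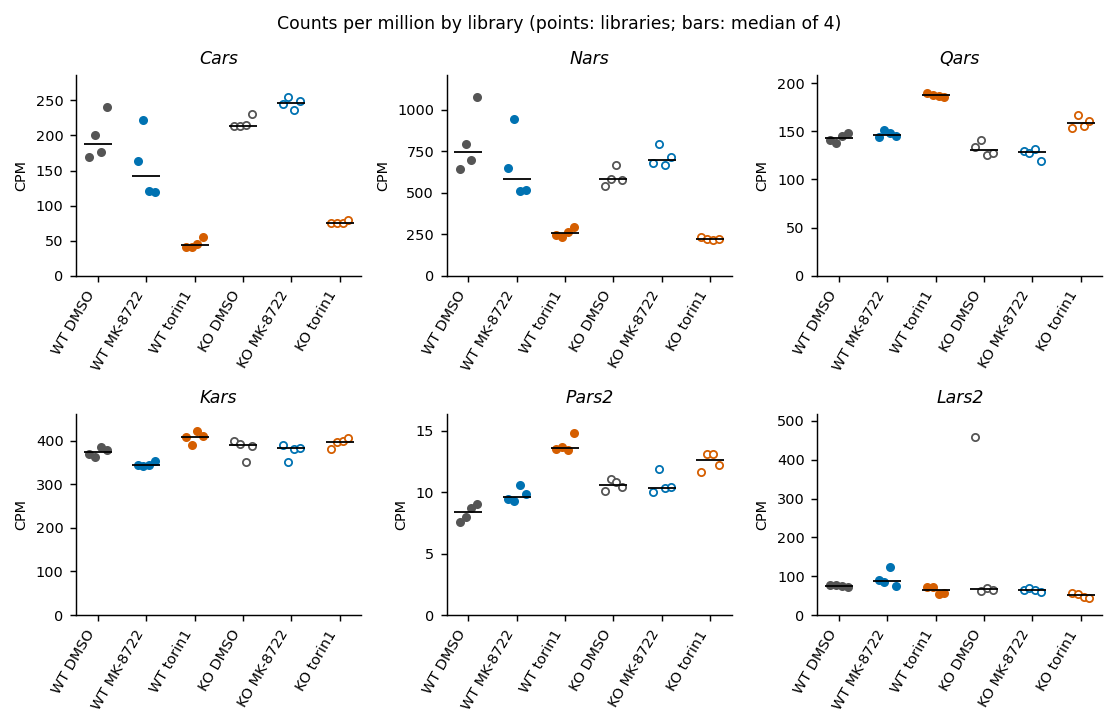
CPM of Cars, Nars, Qars, Kars, Pars2 and Lars2 in each of the 24 libraries by group, with 1 point per library, a bar at the median of 4 and KO for AMPK KO. Cars and Nars drop with torin1 in both genotypes, Qars rises, Pars2 rises in WT, Kars stays between 342 and 423 CPM, and Lars2 has 1 library at 459 CPM while every other library of its group is at 68.6 CPM or less.

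Of the 7 cytosolic members of the multisynthetase complex among these genes, a grouping made after their values were seen, Iars, Lars and Mars1 fell with torin1 in both genotypes, Qars rose, and Kars, Rars and Dars were not called. Of the 12 cytosolic genes outside the complex, 11 fell in both genotypes and Vars was not called. The median log2 fold change in WT was -0.25 inside and -1.10 outside the complex, and in AMPK KO -0.14 and -1.05. Among the scaffold genes, Aimp2 fell (-0.36 in WT and -0.50 in AMPK KO), as did Eef1e1 (-0.46 and -0.34), while Aimp1 had log2 fold changes of 0.22 and 0.15, not called. Eprs, which encodes the joined enzyme for glutamate and proline and is missed by the naming rule, fell by less than most (-0.55 and -0.47). Tarsl2, another gene for a cytosolic threonine enzyme, rose (0.64 and 0.59) where Tars fell.

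Among the mitochondrial genes, Pars2, for proline (ENSMUSG00000043572, chromosome 4, 106651069 to 106655282, plus strand), rose from 7.58, 8.01, 8.75 and 9.01 to 13.5, 13.7, 13.4 and 14.8 CPM in WT, 0.73 (adjusted p = 3.7e-09 in edgeR, SE 0.07). In AMPK KO Pars2 went from 10.1, 11.1, 10.8 and 10.4 to 11.6, 13.1, 13.1 and 12.2 CPM, 0.24 (adjusted p = 0.005 in edgeR, SE 0.069), below the fold of 1.2, and the interaction was -0.49 (adjusted p = 0.0026 in edgeR, SE 0.098). The WT rise started from a lower DMSO level and ended at a higher torin1 level than in AMPK KO.

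Vars2, for valine (ENSMUSG00000038838, chromosome 17, 35655634 to 35667592, minus strand), rose from 51.5, 48.7, 53.5 and 56 to 80.9, 74, 73.5 and 74.4 CPM in WT, 0.53 (adjusted p = 1.3e-08 in edgeR, SE 0.055), and from 54.3, 51.6, 55.1 and 56.7 to 66.7, 73.8, 66 and 68.8 CPM in AMPK KO, 0.34 (adjusted p = 1.2e-05 in edgeR, SE 0.055). Iars2, for isoleucine (ENSMUSG00000026618, chromosome 1, 185284726 to 185329396, minus strand), rose from 118, 103, 117 and 118 to 152, 141, 150 and 150 CPM in WT, 0.38 (adjusted p = 6.1e-08 in edgeR, SE 0.043), and from 107, 104, 104 and 111 to 146, 152, 158 and 155 CPM in AMPK KO, 0.52 (adjusted p = 5.3e-10 in edgeR, SE 0.043). Neither gene's groups overlapped, and the call of Vars2 in AMPK KO was lost without torin1 replicate 2 (0.25). Of the 8885 exonic bases annotated for Iars2, 2034 are shared with Rab3gap2 on the opposite strand, and whether counting used strand is not given in the sources used here.

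Tars2 (ENSMUSG00000028107, chromosome 3, 95739976 to 95760206, minus strand) stood at 56.3, 55.3, 55.8 and 60.1 CPM with DMSO and 82.4, 77.4, 78.9 and 84.2 CPM with torin1 in WT, 0.50 (adjusted p = 2.5e-10 in edgeR, SE 0.041), and at 56.6, 55.4, 58.1 and 58.7 and 67.1, 66.8, 65.2 and 70.1 CPM in AMPK KO, 0.23 (adjusted p = 3.4e-05 in edgeR, SE 0.041), and its interaction was -0.27 (adjusted p = 0.0046 in edgeR, SE 0.058). That interaction fell below the fold of 1.2 without any 1 of 4 libraries (WT DMSO replicates 2 and 3, WT torin1 replicate 4, AMPK KO torin1 replicate 3), at -0.26 to -0.25. The libraries with DMSO were alike in both genotypes and the WT libraries with torin1 were the highest. Rars2, for arginine, rose in WT (0.27), a call lost without WT DMSO replicate 1 or 2 or WT torin1 replicate 4 (0.18 to 0.24), and was not called in AMPK KO (0.19), and this difference between genotypes was itself not called (interaction -0.08). The mitochondrial genes that fell in both genotypes were Yars2 (-0.63 and -0.46) and Aars2 (-0.48 and -0.36), and Nars2 fell in WT (-0.35) and was not called in AMPK KO (-0.22). The mitochondrial genes not called in either genotype lay between -0.23 (Mars2) and 0.12 (Fars2) in WT and between -0.23 (Mars2) and 0.07 (Fars2) in AMPK KO.

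**Figure D3:**
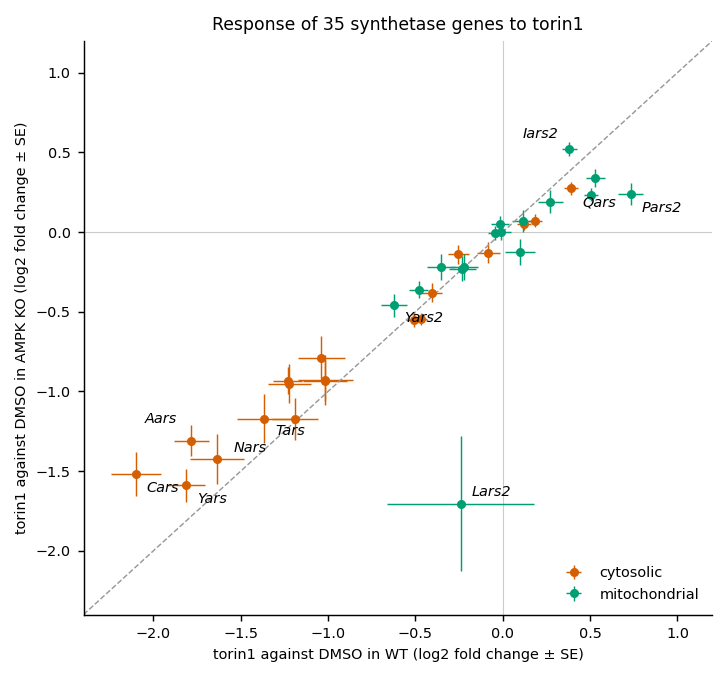
Log2 fold change of each of 35 synthetase genes with torin1 in WT (x axis) against AMPK KO (y axis), with bars of 1 SE and a dashed line of equal change, orange for cytosolic and green for mitochondrial genes. Most points lie near the dashed line, Aars and Cars lie above it, Pars2 below it, and Lars2 stands far below it with the widest bars.

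Lars2, for leucine (ENSMUSG00000035202, chromosome 9, 123366927 to 123462666, plus strand), was called lower with torin1 in AMPK KO, -1.70 (adjusted p = 0.0015 in edgeR, SE 0.425), and this value rested on 1 library. It was at 459, 62.9, 68.6 and 65.5 CPM in AMPK KO replicates 1 to 4 with DMSO and at 55.7, 54, 46.6 and 44.7 CPM with torin1. Replicate 1 with DMSO, of passage 19, was thus far above the other 3, and without it the log2 fold change was -0.39 (edgeR adjusted p = 0.011). The same library enters the response of Lars2 to MK-8722, -1.36 in AMPK KO and -1.66 as an interaction, neither called. Under the alternatives these values reached up to -0.04 and -0.34. The spread of Lars2 was estimated over all 24 libraries, so this library also entered its test with torin1 in WT (-0.24, not called). In WT Lars2 stood at 77.7, 77.7, 73.9 and 73.2 CPM with DMSO, 89.5, 85.1, 123 and 73.9 CPM with MK-8722 and 71.9, 73.2, 54.3 and 56.9 CPM with torin1. Examined after these values were seen, the same library had 6330 CPM of CT010467.1, annotated as ribosomal RNA, where the other 3 of its group had 701 to 736 CPM, and 12.9 CPM of Rn7s1, where they had 0.939 to 1.22 CPM. The WT MK-8722 library with the highest Lars2 level in WT, 123 CPM, also had the highest level of CT010467.1 in WT, 1740 CPM, where the other 3 of its group had 761 to 968 CPM. The part of these RNAs in the Lars2 values was not tested.

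The enzymes of both compartments were then set side by side by amino acid. There are 16 pairs of a cytosolic and a mitochondrial gene for the same amino acid, where Farsa and Farsb are each set beside Fars2. With torin1 in WT, the cytosolic gene had the lower log2 fold change in 16 of 16 pairs, and in AMPK KO in 15 of 16, the exception being Lars and Lars2. That exception rested on AMPK KO DMSO replicate 1, without which Lars was at -0.83 and Lars2 at -0.39. The cytosolic gene fell in 13 pairs in each genotype, and in 10 of these the mitochondrial gene was not called lower. The widest gap in WT was that of Cars (-2.10) and Cars2 (-0.22). Tars and Tars2, and Iars and Iars2, were called in opposite directions in WT, and Iars and Iars2 also in AMPK KO.

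**Figure D4:**
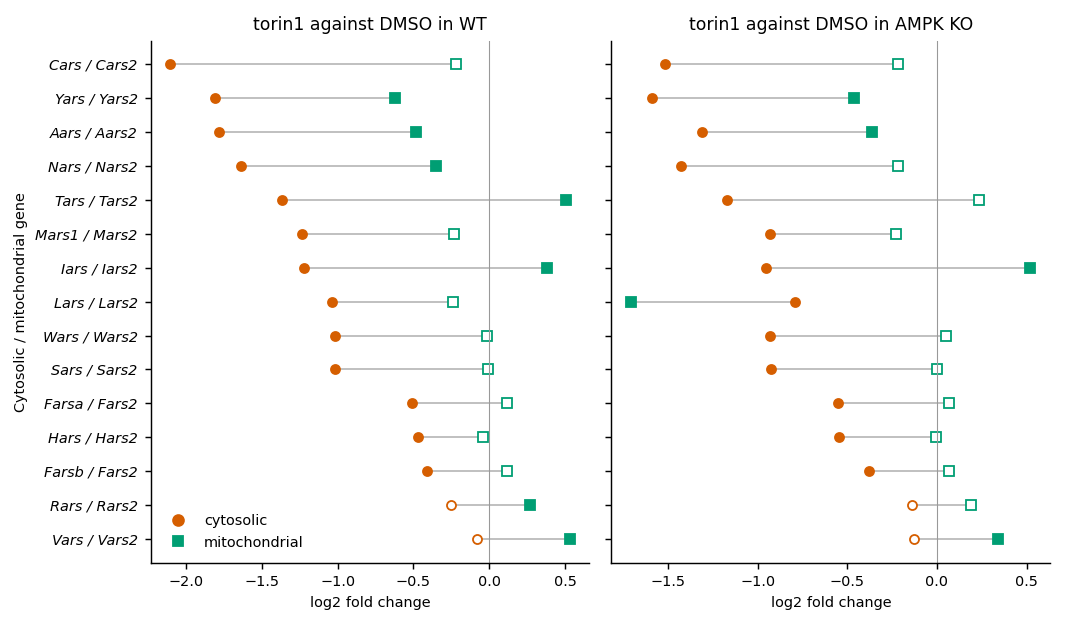
Log2 fold change with torin1 of the cytosolic (orange circle) and the mitochondrial gene (green square) in 15 pairs for the same amino acid, joined by a line, in WT (left) and AMPK KO (right), with filled symbols where the gene was called. The circle lies left of the square in every pair shown except Lars and Lars2 in AMPK KO, which rests on 1 library with DMSO.

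Beside the synthetases, Atf4 and 22 genes of the amino acid response known as ATF4 targets were taken as a list of 23. With torin1, 22 of 23 fell in WT and 23 of 23 in AMPK KO, with medians of -1.86 and -1.95. Atf4 itself fell (-1.86 in WT and -1.68 in AMPK KO), as did Asns, the asparagine synthetase that makes the amino acid (-1.77 and -1.95), Mthfd2, a mitochondrial folate enzyme (-2.62 and -2.49), and Slc7a11, a cystine transporter (-6.28 and -5.46). Of 13 other genes of charging, editing and tRNA maturation, 4 rose and 4 fell in WT and 3 rose and 3 fell in AMPK KO, shares near those of all genes tested (26.6% and 21.1% in WT, 25.9% and 17.6% in AMPK KO). Mitochondria have no glutaminyl-tRNA synthetase of their own and convert a mischarged tRNA with an amidotransferase, of which the subunit gene Gatb rose (0.58 and 0.65), Qrsl1 fell (-0.61 and -0.37) and Gatc was not called (-0.10 and -0.01).

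MK-8722 called few synthetase genes. In WT, 1 of 36 was called higher and 2 lower, beside 10% and 5.66% of all genes tested. In AMPK KO, edgeR called 0 of 36 in either direction, beside 0.866% higher and 0.695% lower of all genes, although 13 of the 36 had an unadjusted p under 0.05, and DESeq2 also called 0. Both fits left passage out. With passage as a block, 6 of 36 were called in AMPK KO, all higher, beside 729 of all genes. In WT the block called 6, beside 2907 of all genes. The medians had opposite signs for the cytosolic genes, -0.12 in WT and 0.15 in AMPK KO, with all genes at -0.002 and 0.002. The WT median was -0.25 without WT MK-8722 replicate 2, -0.19 without WT DMSO replicate 1 and -0.06 without WT DMSO replicate 4. Below zero in WT were 15 of the 19 cytosolic genes and above zero in AMPK KO 16 of 19. The MK-8722 and torin1 comparisons of a genotype share its DMSO libraries.

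With MK-8722, Yars went in WT from 197, 230, 203 and 271 to 188, 239, 159 and 154 CPM, -0.28 (adjusted p = 0.035 in edgeR, SE 0.1), and Cars2, for cysteine (ENSMUSG00000056228, chromosome 8, 11513977 to 11550783, minus strand), from 29, 24.9, 26.7 and 29.5 to 19.9, 28.4, 23.2 and 19.8 CPM, -0.27 (adjusted p = 0.014 in edgeR, SE 0.081). For both, 1 library with MK-8722 lay within the range of DMSO. The call of Yars was lost without any 1 of 5 of the 8 libraries (DMSO replicates 2 and 4, MK-8722 replicates 1, 3 and 4), at -0.29 to -0.18, and that of Cars2 without any 1 of 4 (DMSO replicates 1 and 4, MK-8722 replicates 1 and 4), at -0.26 to -0.21.

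The WT libraries of passage 12 stood apart from the other passages in the cytosolic genes. Of the 19 cytosolic genes, 17 were highest at passage 12 among the 4 WT libraries with DMSO and 16 among those with MK-8722, and 11 with torin1. Their summed level at passage 12 was 8181 CPM with DMSO, where the other passages had 5932 to 6700 CPM, 7773 CPM with MK-8722, where they had 5194 to 6035 CPM, and 3808 CPM with torin1, where they had 3516 to 3678 CPM. Of the mitochondrial genes, 9, 8 and 7 of 17 were highest at passage 12 in these groups. Passage 12 is 1 library in each group, and how many of all genes tested were highest in it was not counted. The pattern was not particular to the synthetase genes. Among the WT libraries with DMSO, every gene of the amino acid response list was also highest at passage 12. Asns, for example, was at 585 CPM (others 359 to 466) and Trib3 at 114 CPM (others 61.7 to 65). Without these 3 libraries, an alternative chosen after the data were seen, MK-8722 called 9 synthetase genes in WT, 2 higher and 7 lower. Over all genes 2635 were called, 60% of them higher. The 7 lower synthetase genes included Cars (-0.44), Tars (-0.45), Nars (-0.36) and Iars (-0.32). With passage as a block, 1 rose and 5 fell in WT, and in AMPK KO 6 rose, which were Wars (0.31), Tars (0.28), Lars (0.30), Nars (0.27), Gars (0.31) and Sars (0.29). The block also raised the number of all genes called, from 2483 to 2907 in WT and from 247 to 729 in AMPK KO.

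**Figure D5:**
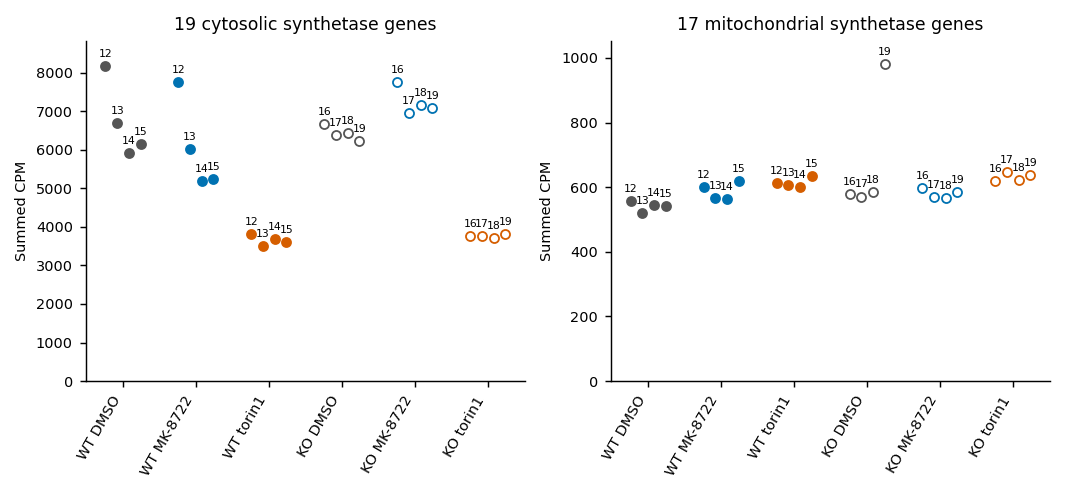
Summed CPM of the 19 cytosolic (left) and 17 mitochondrial (right) synthetase genes in each library by group, with the passage number over each point and KO for AMPK KO. On the left the passage 12 libraries with DMSO and MK-8722 stand above the others of WT and both torin1 groups lie lowest, and on the right 1 AMPK KO library with DMSO, of passage 19, stands at 980 CPM.

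Whether the response to MK-8722 differed between the genotypes was tested as an interaction, the AMPK KO response minus the WT response. It was called positive for 4 genes and negative for 1, beside 5.12% and 7.66% of all genes tested. Scaled by library size alone, 3 were positive and 3 negative. For the cytosolic genes 18 of 19 differences were above zero, with a median of 0.27, and for the mitochondrial genes 8 of 17, with a median of -0.06. Tars, for threonine (ENSMUSG00000022241, chromosome 15, 11382301 to 11399665, minus strand), went in WT from 341, 432, 360 and 581 CPM with DMSO to 327, 469, 251 and 257 CPM with MK-8722 and in AMPK KO from 561, 597, 624 and 598 to 712, 769, 680 and 722 CPM, an interaction of 0.67 (adjusted p = 0.034 in edgeR, SE 0.216). In AMPK KO every library with MK-8722 was above every library with DMSO, and in WT the groups overlapped. Yars had 292, 326, 290 and 307 CPM with MK-8722 in AMPK KO, above the 267, 265, 279 and 281 CPM with DMSO, and an interaction of 0.44 (adjusted p = 0.034 in edgeR, SE 0.14). Mars2 (ENSMUSG00000046994, chromosome 1, 55237177 to 55248470, plus strand) went from 19.9, 18.8, 18.4 and 23 to 18.6, 20.5, 16.2 and 17.9 CPM in WT and from 20.5, 21, 17.5 and 19.6 to 24.1, 21.2, 24 and 22.7 CPM in AMPK KO, an interaction of 0.36 (adjusted p = 0.026 in edgeR, SE 0.11). Hars had an interaction of 0.27 (adjusted p = 0.00068 in edgeR, SE 0.051). Each of these calls was lost without some single libraries, 6 of 16 for Tars (0.49 to 0.67) and for Yars (0.33 to 0.42), 4 for Mars2 (0.28 to 0.34) and 2 for Hars (0.25 to 0.26), and WT DMSO replicate 4, of passage 12, was among them for all 4 genes. With passage as a block 13 interactions were called, 12 positive and 1 negative, and without the WT libraries of passage 12 also 13, all positive. The calls over all genes went from 2023 to 2785 and 2248. Leaving out single libraries gave 1 (without WT MK-8722 replicate 3) to 14 (without WT MK-8722 replicate 2), in both cases all positive. Without WT DMSO replicate 4, however, 0 were positive and 3 negative, beside 1839 calls over all genes. In the amino acid response list 12 of 23 interactions were called positive and 0 negative, with a median of 0.63, among them Atf4 (0.47), Sesn2, an inhibitor of MTOR signalling (1.01), and Psat1, of serine synthesis (0.67). Only 1 of the 23 was below zero, that of Ddit3 (-0.52), not called. How many of these list calls hold without single libraries was not examined. Every gene of the list was highest among the WT DMSO libraries in replicate 4, of passage 12.

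The interaction of torin1 with genotype was called positive for 1 synthetase gene, Aars, and negative for 2, Pars2 and Tars2, beside 4.15% and 2.92% of all genes tested. Scaled by library size alone, 0 were positive and 2 negative, with Aars at 0.44 (edgeR adjusted p = 0.051). The median was 0.087 over the cytosolic and 0.001 over the mitochondrial genes, and the former lay between -0.015 and 0.143 when single libraries were left out. Cars had the largest positive difference, 0.58 (adjusted p = 0.058 in edgeR, SE 0.195), not called, with a 95% interval of 0.17 to 0.99. With passage as a block it was called at 0.58 (edgeR adjusted p = 0.00045). The call of Aars was lost without any 1 of 11 of the 16 libraries (WT DMSO replicate 4, WT torin1 replicates 1 and 3, and all AMPK KO libraries with DMSO or torin1), at 0.39 to 0.47, whereas that of Pars2 was kept without any 1 library.

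Between the genotypes in DMSO, 11 of 36 genes were higher in AMPK KO and 4 lower, beside 30.9% and 26% of all genes tested. The mitochondrial genes had 7 higher and 1 lower with a median of 0.22, and the cytosolic genes 4 higher and 3 lower with a median of 0.02, beside 0.015 over all genes. The mitochondrial median was 0.073 without AMPK KO DMSO replicate 1, which also carried the call of Lars2, and 0.10 without WT DMSO replicate 1, and the cytosolic one lay between -0.067 and 0.059 when single libraries were left out. Sars2, for serine (ENSMUSG00000070699, chromosome 7, 28741992 to 28753871, plus strand), differed most, at 17.3, 17.8, 17.3 and 15.2 CPM in the WT libraries and 40.1, 39.4, 36.8 and 40.1 CPM in the AMPK KO ones, 1.21 (adjusted p = 1.7e-15 in edgeR, SE 0.054). Its level stayed apart under each drug, at 14.9 ± 0.813 against 35.3 ± 1.15 CPM with MK-8722 and 16.8 ± 0.78 against 39.1 ± 1.87 CPM with torin1 (SD, n = 4 each). Ears2, for glutamate (ENSMUSG00000030871, chromosome 7, 122037213 to 122067263, minus strand), was at 11.9, 11.1, 10.3 and 10.7 CPM in the WT libraries and 20.1, 20.9, 17.6 and 19 CPM in the AMPK KO ones, 0.82 (adjusted p = 5.7e-09 in edgeR, SE 0.084). Neither gene's groups overlapped.

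Lars2 was called higher in AMPK KO with 1.12 (adjusted p = 0.021 in edgeR, SE 0.417), with group means of 75.6 ± 2.43 CPM (WT) and 164 ± 197 CPM (AMPK KO, SD, n = 4 each). Without AMPK KO DMSO replicate 1 the AMPK KO mean was 65.6 ± 2.84 CPM (SD, n = 3) and the log2 fold change -0.22 (edgeR adjusted p = 0.13), with the opposite sign. Mitochondrial genes that were higher in AMPK KO included Aars2 (0.40), Wars2 (0.36) and Pars2 (0.35), and the cytosolic ones were Tars (0.47), Dars (0.47), Yars (0.28) and Farsb (0.27). Calls were lost without any 1 of 5 of the 8 libraries for Yars (0.18 to 0.26) and Farsb (0.20 to 0.26), of which WT DMSO replicates 1, 2 and 3 and AMPK KO DMSO replicate 3 ended both, without WT DMSO replicate 1 or 3 for Tars (0.34 to 0.36) and without WT DMSO replicate 1 for Pars2 (0.26).

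The lower genes were Lars, Nars, Iars and Hars2. Lars (ENSMUSG00000024493) was at 321, 390, 347 and 549 CPM in the WT libraries and 273, 286, 341 and 283 CPM in the AMPK KO ones, -0.44 (adjusted p = 0.0053 in edgeR, SE 0.134), and Nars at the DMSO values given above, -0.44 (adjusted p = 0.013 in edgeR, SE 0.152). For both, the lowest WT library lay within the AMPK KO range, and without WT DMSO replicate 4 the difference of Nars was -0.28 and not called. Iars (ENSMUSG00000037851, chromosome 13, 49682100 to 49734267, plus strand) was at 458, 523, 462 and 642 CPM in the WT libraries and 377, 395, 401 and 407 CPM in the AMPK KO ones, -0.40 (adjusted p = 0.005 in edgeR, SE 0.121), with no overlap. Scaled by library size alone, which moved the median of all genes from 0.015 to 0.155, the calls of Lars, Nars and Iars were lost, with log2 fold changes of -0.30, -0.30 and -0.26, as was that of Hars2 at -0.26, and 14 genes were called higher and 0 lower. Hars2 (ENSMUSG00000019143) had means of 29.3 ± 1.35 CPM for WT and 22.2 ± 0.846 CPM for AMPK KO (SD, n = 4 each), -0.40 (adjusted p = 3.4e-08 in edgeR, SE 0.045), and shares 195 of 4279 exonic bases with Hars on the opposite strand.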

How the data were processed

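RNA-seq was performed on 24 libraries of MEFs, 4 in each of 6 groups taken from the genotype and treatment labels. According to the study's methods, the authors ran nf-core/rnaseq with STAR on the mouse genome GRCm38 and an Ensembl annotation, and the labels also name Salmon. The authors deposited estimated counts per gene, without normalization, and per transcript TPM (scaled for length and depth), effective lengths and estimated counts.

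Estimated counts were rounded to whole numbers. Low genes were removed with filterByExpr, TMM factors were computed, and 6 group means were fitted to all 24 libraries with the quasi-likelihood test of edgeR 4.0.16 (R 4.3.3, limma 3.58.1). Two-sided p values received the Benjamini-Hochberg adjustment over 15828 genes, which held 99.96% of counts. Calls required an adjusted p under 0.05 together with a fold of at least 1.2. The common biological coefficient of variation was 0.079. Replicates differed by more than sampling noise in every pair (chi-square per degree of freedom 3.67 to 28.3 over 36 pairs). The procedure was tested on simulated counts. Standard errors come from the same fit. All libraries carry 1 batch label, so no within-batch values could be given. The study's methods report that a batch effect was removed with limma, without naming the batch, and none was removed here.

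The members and lists were chosen with earlier results of these data known. Values in every library are given for the 3 called genes that rose most and the 3 that fell most in each comparison, the 3 with the largest interactions, and the highest and lowest per length. Positions are from GENCODE M21 (GRCm38) and promoters from RefSeq. The values of 1 mitochondrial gene are counted but not reported here. A planned comparison of protein sequences was not made.

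Alternatives were DESeq2 size factors, library size alone, no filter, at least 10 counts in every library, an offset for effective length, replicate number or passage as a block, DESeq2 1.42.0, adjusted p alone, a fold of at least 1.5, and leaving out each library in turn. Leaving out the 3 WT libraries of passage 12 was chosen after seeing the data. Replicate numbers did not pair the libraries (correlation of deviations -0.2 to 0.25 over 60 pairs, 5 over 0.1), and passages did so in part (-0.01 to 0.37 over 24 pairs, 15 over 0.1).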

Additional observations from a re-analysis of the deposited data

Results flagged for a closer look

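In 16 of 216 sets of 4 libraries (36 genes in 6 groups), the highest or the lowest library was separated from the nearest of the others by a share of the group's whole range above Dixon's 95% critical value. Chance does so in about 1 in 20 sets. The widest separation was that of Lars2, at 459 CPM in AMPK KO DMSO replicate 1, where the others had 62.9 to 68.6 CPM, the library that also held high CT010467.1.

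Several libraries set apart were of WT passage 12. WT MK-8722 replicate 2 had 812 CPM of Vars (others 615 to 640), 215 CPM of Rars (186 to 188) and 129 CPM of Wars (85.3 to 90.7). WT DMSO replicate 4 had 131 CPM of Wars (93.8 to 98.4) and 8.85 CPM of Nars2 (7.35 to 7.6). WT torin1 replicate 4 was high in Wars2, at 16 CPM (15.2), and low in Sars2, at 15.6 CPM (17.1 to 17.2).

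Others were of AMPK KO passage 16. AMPK KO DMSO replicate 3 had 121 CPM of Wars (others 102) and 619 CPM of Gars (505 to 522), and AMPK KO MK-8722 replicate 2 had 252 CPM of Rars (222 to 227) and 409 CPM of Lars (343 to 354). The remaining libraries set apart were AMPK KO DMSO replicate 4 in Cars, at 231 CPM (213 to 215), WT torin1 replicate 1 in Vars2, at 80.9 CPM (73.5 to 74.4), WT MK-8722 replicate 1 in Nars2, at 7.67 CPM (8.78 to 8.92), and WT DMSO replicate 2 in Iars2, at 103 CPM (117 to 118).

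The response to a drug differed between the genotypes by the test of the interaction in edgeR, given as a difference of log2 responses, AMPK KO minus WT. With MK-8722 these included Tars (0.67), Yars (0.44), Mars2 (0.36) and Hars (0.27), and with torin1 Aars (0.47), Tars2 (-0.27) and Pars2 (-0.49). The cause of these differences was not tested.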

How the results depend on the processing

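The falls of the 14 cytosolic genes with torin1 kept their direction and their side of the threshold in both genotypes under every alternative run except the fold of at least 1.5. Synthetase genes called under other settings, each beside the count as reported, were as follows. With MK-8722 in WT, 3 became 5 without a filter and 5 with at least 10 counts in every library, 6 with passage as a block, 8 on adjusted p alone, 0 at a fold of at least 1.5, and 9 without passage 12. In the same order, calls over all genes went from 2483 to 2434, 2338, 2907, 4447, 833 and 2635. With MK-8722 in AMPK KO, 0 became 1 without a filter or on adjusted p alone, and 6 with passage as a block. There, calls over all genes went from 247 to 276, 423 and 729. At a fold of at least 1.5, 24 became 14 with torin1 in WT, 21 became 13 in AMPK KO, and 15 became 3 between genotypes. Over all genes, 7540 became 3855, 6879 became 3146 and 9007 became 5541. The MK-8722 interaction went from 5 to 8 without a filter, 13 with passage as a block or without passage 12, and 1 at a fold of at least 1.5. Over all genes it went from 2023 to 1887, 2785, 2248 and 681. The torin1 interaction went from 3 to 6 with passage as a block and 0 at a fold of at least 1.5, and over all genes from 1119 to 1861 and 305. Leaving out each library gave 1 to 10 (MK-8722 in WT), 0 to 1 (MK-8722 in AMPK KO), 24 to 26 (torin1 in WT), 19 to 23 (torin1 in AMPK KO), 13 to 15 (genotypes), 1 to 14 (MK-8722 interaction) and 1 to 4 (torin1 interaction). The 10 and the 14 came without WT MK-8722 replicate 2, where 2672 and 2404 of all genes were called. The 1 of the torin1 interaction came without AMPK KO torin1 replicate 3, where 1025 of all genes were called. Lars2 between genotypes reversed to -0.22 without AMPK KO DMSO replicate 1. Leaving out any other single library kept Lars2 called higher, and its highest value under any alternative was 1.38. With replicate number as a block (replicate block), the counts were 3, 0, 24, 21, 14, 5 and 3 in the same order, and Lars2 between genotypes, at 0.83, was the call lost. Passage as a block could not be fitted between genotypes, which share no passage. Calls of single genes were also lost with the offset for effective length (Rars2 with torin1 in WT, 0.21, Vars2 with torin1 in AMPK KO, 0.25, Wars2, Farsb and Yars between genotypes, 0.20 to 0.25, and Tars2 with torin1 as an interaction, -0.26), without a filter (Rars2, Qars in AMPK KO, Farsb and Yars), with at least 10 counts in every library (Qars in AMPK KO, 0.26), with library size alone (Nars2 with torin1 in WT, -0.25, and the Hars interaction, 0.25) and without passage 12 (Lars2 between genotypes, 1.06). Library size alone shifted the log2 fold change at the median of all genes to 0.136 with torin1 in WT, 0.117 in AMPK KO and 0.155 between genotypes. DESeq2 gave no adjusted p for Lars2. The causes of these changes were not tested. Changes near the fold of 1.2 can pass or miss the call with small shifts in the estimate.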
